A study of Mus musculus with 2 samples.

Results

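Chemokines and their receptors were examined in mouse hematopoietic stem cells (HSC, the bone marrow cells from which all blood lineages arise). The cells were labelled wild type or knockout for the histone deacylase Sirt6. Members were all genes whose platform symbol is Ccl, Ccr, Cxcl or Cxcr followed by a number and that have a probe set naming that gene alone. This gave 46 of the 18193 genes named on the array, 31 of them ligands and 15 receptors. RNA of cells labelled Sirt6 knockout was hybridised to 1 Affymetrix array and RNA of wild-type cells to another, both from mice aged 3 months. The sources used here do not give how the cells were sorted, how the Sirt6 allele was disrupted, the strain or the number of animals behind each RNA. With 1 array per genotype no difference below carries a biological error or a p-value, and each compares these 2 RNA samples.

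Chemokines are small secreted proteins that direct cell movement, and they are classed as CC or CXC by the spacing of conserved cysteines. They bind receptors of the G protein-coupled family, which signal mainly through Gi proteins to phosphoinositide 3-kinase, phospholipase C and Rac GTPases. In bone marrow, Cxcl12 made by stromal cells and its receptor Cxcr4 on HSC hold stem cells in their niche, whereas receptors such as Cxcr2, Ccr1 and Ccr2 serve mainly on mature and maturing myeloid cells.

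Signals are MAS5 values in arbitrary units, and a ratio is always the array labelled knockout over wild type. A gene was taken as measured when its brightest probe set lay above a floor of 60.5 signal units on at least 1 array. Values under the floor were raised to it, so that a fold against such a value is a lower bound. Median signals were 60.7 (array labelled knockout) and 60.8 (wild type), and the median log2 ratio of all 11547 measured genes was 0.0023. Probe sets of the same gene differed in log2 ratio with an SD of 0.22 over 4632 genes, called the technical SD below. It compares probe sets within the same arrays, so it leaves out variation between animals and any error shared by a whole array. It also holds differences between the probe sets themselves, and ratios are set against it as a scale only. The Sirt6 probe set read 174 on the array labelled knockout and 124 in wild type, so the targeted transcript does not check the label, and the array is named by its label throughout. The label HSC was set against 18 progenitor and stem cell markers: all 18 were measured, among them Kit (1746 against 1709 in wild type) and Cd34 (2846 against 2566), and 9 of the 18 were lower by 1.5-fold or more. Those farthest down were Ndn (log2 -1.58), Fhl1 (at least 2.98-fold), Fgd5 (log2 -1.38), Mllt3 (-1.17), Hlf (-1.13, with another probe set at -0.63) and Procr (-0.87), and no marker was higher by that size.

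Of the 46 members, 23 were measured, 16 ligands and 7 receptors, and 17 of these lay above the floor on both arrays. Among the ligands, Ccl9 and Ccl6 had signals 1.5-fold or more above wild type, while Cxcl12, Ccl3 and Ccl27a were lower by that size. Among the receptors, Cxcr2 and Ccr1 were at least 1.5-fold higher and 0 were lower. The background over all 11547 measured genes was 1.71% higher and 2.63% lower by this size. The median log2 ratio was 0.09 over the 16 measured ligands and 0.20 over the 7 measured receptors. Since 6 of the 23 passed the floor on 1 array only, these counts and medians describe the measured members and not the whole family.

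**Figure D1:**
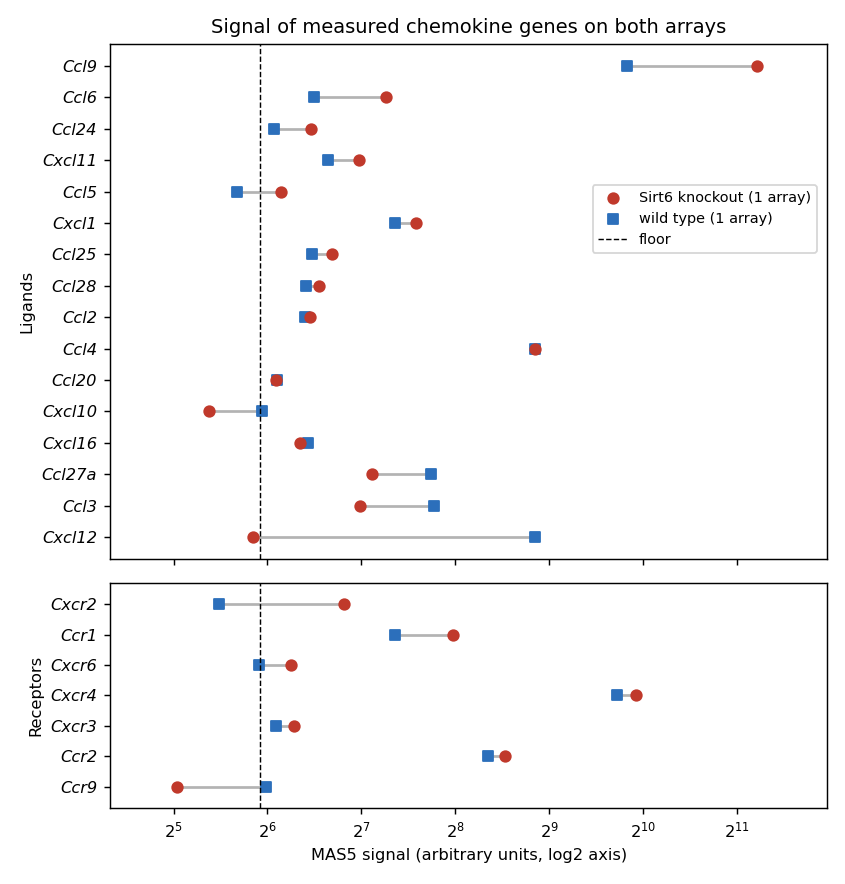
MAS5 signal (log2 axis, arbitrary units) of the 16 measured ligands and 7 measured receptors for the array labelled knockout (circles) and wild type (squares), 1 array each, ordered by ratio; the dashed line is the floor of 60.5. Cxcl12 spans the widest gap, with 57.4 (under the floor) for the array labelled knockout against 461 in wild type, and Ccl9 is the widest in the opposite direction.

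The ligand with the highest ratio was Ccl9, a CC chemokine of myeloid cells that acts through Ccr1. Its brightest probe set read 2375 on the array labelled knockout and 909 in wild type, a log2 ratio of 1.38 (2.61-fold). A second probe set gave 1467 against 567, a log2 ratio of 1.37, so the probe sets differed by far less than the technical SD. Of all 11547 measured genes, 12 including Ccl9 itself had a ratio this high, and of 1314 genes within 0.5 log2 units of its mean signal Ccl9 was the only 1. Ccl6, a related myeloid CC chemokine the next member after Ccl9 along chromosome 11, read 154 on the array labelled knockout and 90.5 in wild type (log2 0.77). Its second probe set pointed the same way at 45.5 against 24.8, but lay under the floor on both arrays. A ratio as high as that of Ccl6 was seen in 98 measured genes, and in 1.53% of 2028 genes of similar signal.

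Ccl3 and Ccl4, the members after Ccl9 and Ccl6 in gene order, did not share these ratios. Among the members, the CC ligand genes Ccl5, Ccl9, Ccl6, Ccl3 and Ccl4 come in this order on chromosome 11 (RefSeq, GRCm38.p6). Ccl3, an inflammatory chemokine (MIP-1 alpha) that also restrains progenitor proliferation, read 126 on the array labelled knockout and 219 in wild type (log2 -0.79), and 136 of all measured genes had a ratio as low. Ccl4 (MIP-1 beta), the next member, read 462 against 460 in wild type, a log2 ratio of 0.0050. Ccl5 (RANTES), a chemokine of T cells and inflammation, read 70.7 on the array labelled knockout and 51.1, under the floor, in wild type, which makes it at least 1.17-fold higher. Its log2 ratio without a floor was 0.47. Before Ccl5 in gene order on the same chromosome, the monocyte attractant Ccl2 read 87.8 against 84.6 (log2 0.05) and the transmembrane chemokine Cxcl16 81.3 against 86.5 (log2 -0.09). The other 5 ligand genes of this chromosome, Ccl7, Ccl11, Ccl12, Ccl8 and Ccl1, lay under the floor on both arrays. Of the 7 measured ligand genes of chromosome 11, 2 were thus at least 1.5-fold higher, 1 was lower and 4 lay between.

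**Figure D2:**
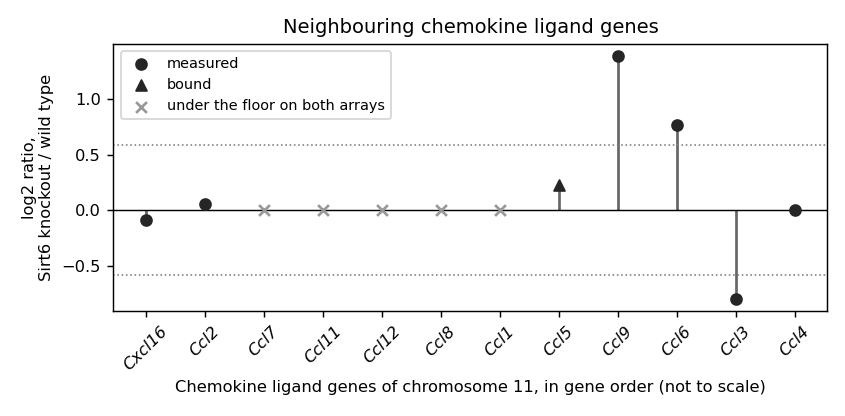
Log2 ratio of signal, array labelled knockout over wild type (1 array each), of the 12 chemokine ligand genes of chromosome 11 in gene order; dotted lines mark 1.5-fold, the triangle is a lower bound and crosses, placed at 0, are genes below the floor on both arrays, which have no ratio. Ccl9 (1.38) and Ccl6 (0.77) stand beside Ccl3 (-0.79) and Ccl4 (0.0050).

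RefSeq promoter windows, from 250 bases before to 50 after the annotated start, were available for 17 of the 23 measured members. The windows of Ccl9 and Ccl6 are shown because these neighbours were both higher, and that of Ccl3 because it was lower in the same cluster. That of Cxcl12 is shown because it had the lowest ratio of all measured genes, taken against the floor. Each is given 5′ to 3′ on the strand of the gene (build GRCm38.p6). In Ccl9 and Ccl6 the capitals mark the stretch that aligns between them, and in Ccl3 the reverse complement of GAGGAA.

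Ccl9, chr11:83578587-83578886, minus strand: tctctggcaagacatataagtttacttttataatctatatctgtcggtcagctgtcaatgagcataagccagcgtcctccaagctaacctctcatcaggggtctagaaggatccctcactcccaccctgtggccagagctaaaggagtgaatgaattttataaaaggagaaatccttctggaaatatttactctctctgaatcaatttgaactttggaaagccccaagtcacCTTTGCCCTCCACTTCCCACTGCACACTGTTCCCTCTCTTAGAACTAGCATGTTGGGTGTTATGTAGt

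Ccl6, chr11:83593038-83593337, minus strand: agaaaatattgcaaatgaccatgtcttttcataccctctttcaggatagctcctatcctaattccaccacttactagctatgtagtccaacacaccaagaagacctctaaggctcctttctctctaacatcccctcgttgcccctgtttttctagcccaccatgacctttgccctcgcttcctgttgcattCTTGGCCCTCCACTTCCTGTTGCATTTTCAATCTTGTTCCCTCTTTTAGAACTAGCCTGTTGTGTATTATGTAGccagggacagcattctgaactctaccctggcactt

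Ccl3, chr11:83649329-83649628, minus strand: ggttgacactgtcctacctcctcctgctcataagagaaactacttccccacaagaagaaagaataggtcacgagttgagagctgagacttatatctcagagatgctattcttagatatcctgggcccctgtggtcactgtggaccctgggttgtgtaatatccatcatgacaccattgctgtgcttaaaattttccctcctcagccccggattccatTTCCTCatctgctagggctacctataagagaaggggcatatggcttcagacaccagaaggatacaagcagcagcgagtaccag

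Cxcl12, chr6:117168285-117168584, plus strand: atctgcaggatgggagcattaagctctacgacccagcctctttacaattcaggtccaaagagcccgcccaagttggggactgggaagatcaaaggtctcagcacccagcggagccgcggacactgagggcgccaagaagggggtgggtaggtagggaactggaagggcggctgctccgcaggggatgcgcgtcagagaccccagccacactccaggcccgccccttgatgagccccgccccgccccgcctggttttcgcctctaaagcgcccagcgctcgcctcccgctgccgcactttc

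Local alignment of the Ccl9 and Ccl6 windows gave a stretch of 74 columns with 58 identical bases (78.4%) and 7 gap letters. Its score of 38 was the highest among 186 pairs of windows of different measured members, and the next pair scored 17. In both genes this stretch spans the annotated start, and it lies farther downstream in Ccl9. The windows were also searched on both strands for a TATA box (TATAAA), a kappaB-like motif (GGNNTTTCC), a C/EBP-like motif (TTGCNNAA), a PU.1-like motif (GAGGAA) and an AP-1 motif (TGANTCA). These letters occur in 13.6%, 5.82%, 10.8%, 28.3% and 7.81% of all 32851 RefSeq windows of 300 bases. The Ccl9 window held 3 TATA box matches, 2 of which overlap each other on opposite strands, 1 kappaB-like match and 1 AP-1 match. The Ccl3 window held 1 PU.1-like match, and the letters of the 5 motifs were not found in the Ccl6 and Cxcl12 windows. The Cxcl12 window had a GC content of 64.7% and 20 CG dinucleotides, against 43.7% and 2 in Ccl9 and a median GC content of 52.7% over all windows. A match is a description of the sequence and not a measured binding site.

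Cxcl12, the chemokine that holds HSC in marrow, had the lowest ratio of all 11547 measured genes. Its brightest probe set read 57.4 on the array labelled knockout, under the floor, and 461 in wild type, at least 7.63-fold lower. A second probe set read 31.5 on the array labelled knockout, also under the floor, and 230 in wild type, which bounds its log2 ratio at -1.93. The third probe set lay under the floor on both arrays, at 16.8 against 12.4. Its signalling receptor Cxcr4 read 973 on the array labelled knockout and 844 in wild type (log2 0.20, 1.15-fold), within the technical SD. The atypical receptor Ackr3, which binds and clears Cxcl12 and was picked for mention after its values were seen, was under the floor on both arrays (8.06 against 7.55).

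Cxcl12 is expressed mainly by marrow stromal and endothelial cells, so their markers are given beside it. In a bulk RNA sample fewer cells of a type and less RNA per cell cannot be told apart. Of 21 stromal and endothelial markers, 12 were measured. Their median log2 ratio was -0.13, 2 being higher by 1.5-fold or more and 4 lower. Of the 12 ratios 5 were positive and 7 negative. Over all 21, those under the floor included, signals summed to 5147 for the array labelled knockout and to 4755 for wild type. Most of both sums came from Igfbp4 (2562 against 2299) and Pdgfrb (1049 against 556), so they say little about the other markers. The defining stromal markers Lepr (36.7 against 34.9), Adipoq, Col1a1, Col3a1, Dcn, Lum, Postn and Kitl and the endothelial marker Cdh5 lay below the floor on each array. The lower markers were Fstl1 (at least 3.30-fold, with another probe set at log2 -0.86), Emcn (2.82-fold), Sparc (log2 -0.86) and Tek (log2 -0.63), while Pdgfrb (0.92) and Pecam1 (0.69) were higher. Other probe sets of Sparc ranged from -1.26 to 0.25. The part of such cells in the Cxcl12 difference was not tested.

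The third lower ligand was Ccl27a, a skin chemokine, with 138 on the array labelled knockout and 213 in wild type (log2 -0.62, 1.54-fold). Its probe set is of the _x_at type, which can match related transcripts. Among further probe sets that name Ccl27a together with Ccl27b and 3 other genes, 1 read 142 against 211 (log2 -0.57) and another 126 against 158 (log2 -0.33). All 3 thus pointed the same way, and the Ccl27 genes cannot be told apart by them. Ratios as low as that of Ccl27a were seen in 3.58% of 2125 genes of similar signal.

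The remaining ligands differed by less than 1.5-fold. Ccl24, an eosinophil attractant, read 88.0 on the array labelled knockout and 67.0 in wild type (log2 0.39). Cxcl11, an interferon-induced ligand of Cxcr3 that RefSeq lists as a transcribed pseudogene in the C57BL/6J assembly, read 126 against 99.9 (log2 0.33). Both ratios exceed the technical SD of 0.22, although 9.24% and 13.7% of genes of similar signal had ratios as high. Cxcl1, a neutrophil attractant, read 192 against 165 (log2 0.22) by a probe set of the _x_at type, and its other probe sets were under the floor. The thymus and gut chemokine Ccl25 read 103 against 89.2 (log2 0.21), and the mucosal chemokine Ccl28 read 93.4 against 85.4 (log2 0.13). These ratios lay within the technical SD, and the second measured probe set of Ccl28 pointed the other way (55.2, under the floor, against 63.3 in wild type). Ccl20, a ligand of Ccr6, read 68.4 against 68.5. Cxcl10, an interferon-induced ligand of Cxcr3, read 41.6 on the array labelled knockout, under the floor, and 61.5 in wild type, which is so near the floor that only a bound of 1.02-fold can be given. Without a floor its log2 ratio was -0.56.

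**Figure D3:**
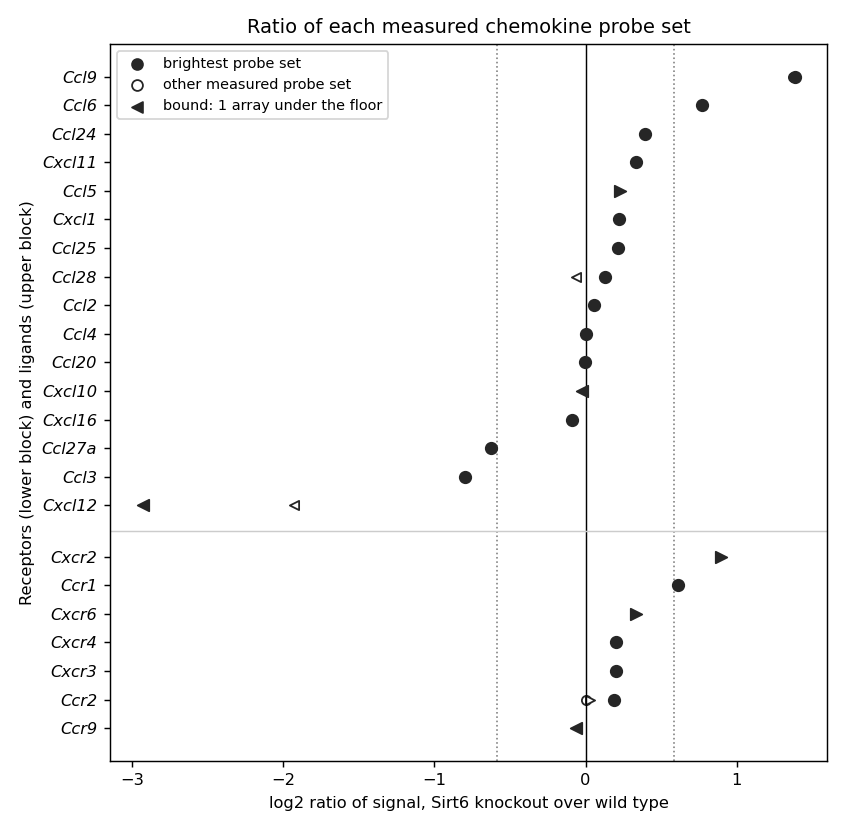
Log2 ratio of signal, array labelled knockout over wild type (1 array each), of every measured probe set of the 23 measured members, ligands above and receptors below; dotted lines mark 1.5-fold and triangles are bounds against the floor. Measured probe sets of Ccl9 overlie each other at 1.38 and 1.37, both of Cxcl12 lie far to the left, and those of Ccl28 and Ccr2 include bounds drawn near 0.

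Among the receptors, Cxcr2, which brings neutrophils to the ligands of the Cxcl1 group, read 113 on the array labelled knockout and 44.8, under the floor, in wild type. It was therefore at least 1.86-fold higher. This bound was reached or passed by 59 measured genes and by 0.473% of 1901 genes of similar signal, whose ratios the floor limits too. Ccr1, a receptor of Ccl3, Ccl6 and Ccl9 on myeloid cells, read 252 against 164 in wild type (log2 0.61, 1.53-fold). This lies just past the 1.5-fold size, and its second probe set, under the floor on both arrays, pointed the same way (31.2 against 14.5). Of all measured genes, 176 had a ratio as high as Ccr1.

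The other measured receptors differed by less than 1.5-fold once values under the floor were raised to it. Ccr2, the Ccl2 receptor of monocytes, read 370 on the array labelled knockout and 325 in wild type (log2 0.19), with a second probe set at 0.0027. A further probe set read 61.8 against 44.1, under the floor in wild type, so that its log2 ratio is bounded at 0.03 or more, and without a floor it was 0.49. Cxcr3, a receptor of activated T cells, read 78.1 against 68.0 (log2 0.20). Cxcr6, the receptor of Cxcl16, read 76.1 against 60.1, just under the floor in wild type, and was at least 1.26-fold higher. The gut-homing receptor Ccr9 read 32.9 on the array labelled knockout, under the floor, and 63.2 in wild type, at least 1.05-fold lower. This probe set is of the _x_at type, and its log2 ratio without a floor was -0.94. The other 4 probe sets of Ccr9 lay below the floor on each array. Cxcr2, Cxcr6 and Ccr9 passed the floor on 1 array only, which fixes the sign of their ratios. The 4 receptors above the floor on both arrays, Ccr1, Ccr2, Cxcr3 and Cxcr4, had positive ratios, and among these only Ccr1 reached 1.5-fold.

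Members under the floor on both arrays are named without a fold. They were the ligands Ccl1, Ccl7, Ccl8, Ccl11, Ccl12, Ccl17, Ccl22, Cxcl2, Cxcl3, Cxcl5, Cxcl9, Cxcl13, Cxcl14, Cxcl15 and Cxcl17, with signals from 3.13 to 56.9 on the array labelled knockout and from 4.52 to 56.1 in wild type. Among the receptors they were Ccr3, Ccr4, Ccr6, Ccr7, Ccr8, Ccr10, Ccr1l1 and Cxcr5, with signals from 10.1 to 38.0 on the array labelled knockout and from 8.11 to 34.2 in wild type. These include the T and B cell homing receptors Ccr4, Ccr6, Ccr7 and Cxcr5, the eosinophil receptor Ccr3 and most neutrophil-attracting ligands of the Cxcl1 group. On chromosome 5, where the CXC ligand genes cluster, 6 of 10 member ligands, Ccl24 included, lay below the floor on each array. Of the 4 measured ones 0 were 1.5-fold different, Cxcl10 being a bound. With 1.71% of all measured genes higher and 2.63% lower by this size, that count says little about the cluster. Probe sets that name several genes, those of Ccl19 and Ccl21, were also under the floor and are not counted as members.

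Set side by side as ligand and receptor, few known partners differed together. Ccl9, Ccl6 and their receptor Ccr1 were all at least 1.5-fold higher, while Ccl3, which also binds Ccr1, was lower. For Cxcl12 and Cxcr4 the ligand was at least 7.63-fold lower and the receptor was at log2 0.20. For Ccl2 and Ccr2 the log2 ratios were 0.05 and 0.19, and for Cxcl16 and Cxcr6 they were -0.09 and at least 0.33. Cxcr2 was higher while its ligand Cxcl1 was at 0.22 and Cxcl2, Cxcl3 and Cxcl5 were under the floor. Ligands whose receptor was under the floor on both arrays were Ccl20 (Ccr6), Ccl24 (Ccr3), and Ccl27a and Ccl28 (Ccr10). Signals of different probe sets are not compared here, since probes differ in binding.

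**Figure D4:**
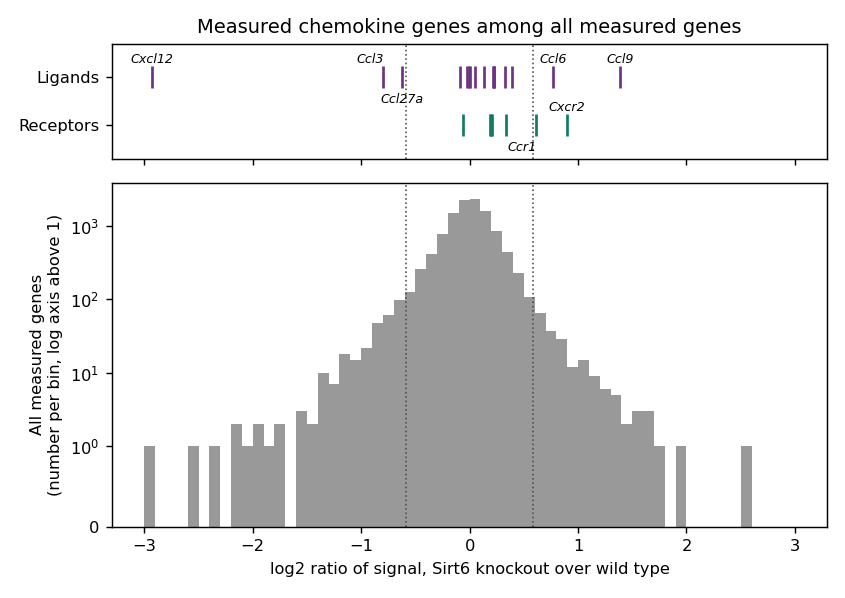
Log2 ratio of signal, array labelled knockout over wild type (1 array each): ticks are the measured ligands and receptors, and bars count all 11547 measured genes per bin of 0.1 (count axis logarithmic above 1). Cxcl12 falls in the lowest filled bin, and Ccl9 and Cxcr2 mark the high end of ligands and receptors; dotted lines mark 1.5-fold.

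Ccl9, Ccl6, Ccr1 and Cxcr2 are expressed by granulocytes, monocytes and their precursors. Most granulocyte markers and some monocyte markers differed between the arrays as well. Of 16 granulocyte markers named on the array, 15 were measured and 11 of these were higher by 1.5-fold or more, 0 being lower. Their median log2 ratio was 0.65. Over all 16, signals summed to 39020 for the array labelled knockout and to 24968 for wild type, and Mmp8 alone was under the floor on both arrays. The highest ratios were those of Lcn2 (log2 1.26), a neutrophil granule protein, Ms4a3 (1.17), a marker of granulocyte-monocyte progenitors, Chil3 (0.93), and the granule proteins Ngp (0.84), Ctsg (0.80) and Ltf (0.80). Of 13 monocyte and macrophage markers, 11 were measured, with a median of -0.0078, 5 ratios being positive and 6 negative. The 3 at least 1.5-fold higher were F13a1 (1.57), Ms4a6c and Fn1 (0.63 each), and 0 were lower by that size. The lowest were C1qc (-0.38), Mrc1 (at least 1.29-fold lower) and C1qb (at least 1.17-fold lower). All 13 summed to 3824 against 2573 in wild type, with F13a1 alone at 1273 against 428. Cd14 and Vcan were under the floor on both arrays. Of 9 basophil and mast cell markers 7 were measured, with a median of 0.51, and all 9 summed to 5415 against 4125. The IgE receptor chain Fcer1a (log2 1.18), the basophil protease Mcpt8 (1.14) and the histamine-forming enzyme Hdc (0.71) were higher, while the mast cell protease Cma1 (-0.89) was lower. The part of these cells in the chemokine differences was not tested.

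Lymphoid and dendritic cell markers are given for the same reason, since Ccl3, Ccl4, Ccl5, Ccr9 and Cxcr3 are also made by lymphocytes. Of 10 B cell markers 8 were measured, with 3 higher, 1 lower and a median log2 ratio of 0.52. The surrogate light chain genes Vpreb1 (log2 1.78) and Igll1 (1.62) of early B cell precursors and the adaptor Blnk (0.87) were higher. The 1 lower marker, and the only measured 1 with a negative ratio, was the immunoglobulin heavy chain gene Ighm (707 on the array labelled knockout against 3684 in wild type), whose other probe sets ranged from -1.78 to -0.04. All 10 summed to 2189 against 4471, Ighm included. Of 15 T and NK cell markers 5 were measured, with a median of 0.53, and all 15 summed to 3307 against 2622. Thy1 (log2 0.90) and Gzmb (0.85), a cytotoxic granule protease, were higher and 0 were lower. The T cell markers Cd3d, Cd3e, Cd3g and Cd4 lay below the floor on each array. Of 11 dendritic cell markers 8 were measured, with a median of -0.42, and all 11 summed to 4311 against 5081. The MHC class II genes H2-Eb1 (log2 -1.12) and H2-Aa (-1.06) and the invariant chain Cd74 (-0.81) were lower, and 0 were higher by 1.5-fold. Irf8 (0.46, with another probe set at 0.54), Itgax (at least 0.31) and Flt3 (0.19) had positive ratios, and the other 5 were negative. Siglech, Ciita and Xcr1 lay under the floor on both arrays. The part of lymphoid and dendritic cells was not tested either.

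Genes that act with chemokines outside the symbol rule were described from fixed lists. Of 17 other chemokine system genes on the array 9 were measured, 2 being lower by 1.5-fold or more and 0 higher. The median of the 9 log2 ratios was 0.11. The lower ones were Pf4, the platelet CXC chemokine, with 501 on the array labelled knockout and 851 in wild type (log2 -0.76), and Cd74, a receptor chain of the cytokine Mif and the invariant chain of MHC class II, with 312 against 547 (log2 -0.81). Mif itself read 5480 against 5088 (log2 0.11). Dpp4, a peptidase that inactivates Cxcl12, read 320 against 272 (log2 0.23).

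Of 45 signalling genes downstream of chemokine receptors 43 were measured, 1 was lower by 1.5-fold or more and 0 were higher. These counts are near the background shares over all genes, and the median of the 43 log2 ratios was 0.05. The lower gene was Plcb2, a phospholipase C activated by G protein beta-gamma subunits, with 87.5 on the array labelled knockout and 217 in wild type (log2 -1.31). The GTPases Rac1 and Cdc42 read 3988 against 3852 (log2 0.05) and 2411 against 2540 (log2 -0.08), although other probe sets of Cdc42 ranged from -0.59 to -0.0014. Dimmer probe sets also reached 1.5-fold lower for the kinase gene Pak2 (-0.66), the ubiquitin ligase gene Itch (-0.60) and the receptor kinase gene Grk3 (-0.59), whose brightest probe sets were at 0.16, 0.25 and -0.05; these 3 were picked for this disagreement. Among marrow retention and adhesion genes, 20 of 23 were measured, 1 was at least 1.5-fold higher and 2 were lower, with a median of 0.04. The integrin chain Itgal, of LFA-1, was higher (1256 against 780, log2 0.69). Esam (log2 -0.77), an adhesion molecule of endothelium and HSC, and the angiopoietin receptor gene Tek (log2 -0.63) were lower. Cd44, a hyaluronan receptor, read 2770 against 2359 (log2 0.23), and Itga4, the alpha chain of VLA-4, read 2428 against 2146 (log2 0.18).

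**Figure D5:**
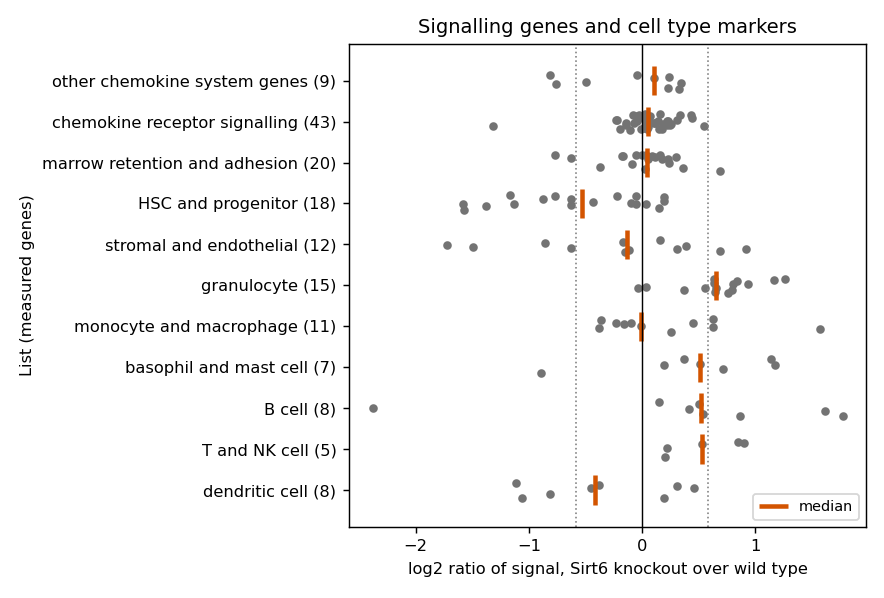
Log2 ratio of signal, array labelled knockout over wild type (1 array each), of the measured genes of each fixed list (dots, with vertical jitter), with the list median as a bar and 1.5-fold as dotted lines; measured genes per list are in brackets. The 43 receptor signalling genes have a median of 0.05 with Plcb2 farthest down, while granulocyte markers lie to the right (median 0.65) and HSC markers to the left (median -0.53).

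Several ratios depend on how dim signals were treated. With the floor at percentile 75 of all probe sets, which left 3 ligands and 3 receptors, Ccr1 was at log2 0.07, Cxcl12 at -0.95 and Ccl9 at 1.38. With the floor signal added as a pseudocount instead, Ccl6 was at 0.51, Ccl3 at -0.58, Ccl27a at -0.46 and Ccr1 at 0.47, each short of 1.5-fold, while Cxcl12 (-2.15), Ccl9 (1.33) and Cxcr2 (0.72) were past it. Quantile normalization put Ccl27a at -0.57, also short of that size. Over the median of its probe sets Cxcl12 was at -2.43.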

How the data were processed

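Gene expression was measured on 1 Affymetrix array labelled Sirt6 knockout and 1 labelled wild type, both of mouse HSC. The intensity of each probe set, deposited on a linear scale, came from MAS5 per the submitters' processing notes. Its version, scaling target and detection calls are open, since the sources used here do not give them. Of 45037 probe sets in all, 34945 named 1 gene in the platform annotation, 932 several and 9160 none, and 34741 of those with 1 gene matched a RefSeq record (GRCm38.p6).

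Log2 was taken of the signals with no further normalization. A gene was represented by its brightest single-gene probe set, and the floor was the median (percentile 50) of the mean log2 signal. Members with any value above the floor were all named. Of each other list, genes at least 1.5-fold different were named, at most 6, and up to 2 of the brightest others. Further list genes were named after their values were seen, for ratios the other way, a large part of a sum, or signals under the floor. Members, lists and sizes were chosen with earlier results of these data known. No test was possible with 1 array per group, and the number of arrays limits the precision. Alternatives were other normalizations (quantile, median centring, loess of span 0.3), a floor at percentile 25 or 75 or none at all, a pseudocount, other probe set choices, and a smaller and a larger (2-fold) size. Windows were aligned locally (match 1, mismatch -1, gap opening -3, gap extension -1). Python 3.11.15, numpy 2.4.6, pandas 2.3.3, statsmodels 0.14.6, Biopython 1.88 and matplotlib 3.10.9 were used.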

Additional observations from a re-analysis of the deposited data

How the results depend on the processing

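Quantile normalization, median centring, loess, the median over probe sets and leaving out _x_at and _s_at probe sets left the counts of measured and of 1.5-fold different ligands and receptors within 1.5 times those reported, and no alternative moved the median of ligands or receptors by more than the technical SD. With the floor at percentile 25, 25 ligands and 12 receptors were measured and 1 receptor (Ccr9) was lower. With the floor at percentile 75, 3 ligands and 3 receptors were measured, 1 ligand was higher, 1 was lower and 0 receptors were higher. Without a floor, all 31 ligands and 15 receptors counted, and 4 receptors were higher and 1 lower. With a pseudocount of the floor signal, 1 ligand was higher, 1 lower, and 1 receptor higher. At 2-fold, 1 ligand was higher, 1 lower and 0 receptors higher, and at the smaller size 4 ligands were higher. No 1.5-fold different member changed sign where it had a value. Floors, the pseudocount and other sizes cannot reverse a sign, and median centring and loess moved these ratios little. The unchanged signs are therefore no support for these ratios under those settings. With the floor at percentile 75 Ccl6, Ccl3, Ccl27a and Cxcr2 had no value, and Ccl27a had no value without _x_at and _s_at probe sets. The floors alter which dim values count, the pseudocount shrinks ratios of dim signals while 16 ligands and 7 receptors stay measured, and the other sizes move only the threshold. No paired analysis was possible because each genotype had 1 array. The absence of replicate arrays limits every comparison, and dim probe sets near the floor are the least reliable.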
